A study of Homo sapiens with 24 samples.

Results

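The HES and ID repressors are small transcriptional regulators of the helix-loop-helix class. The 5 genes HES1, HES4, ID1, ID2 and ID3, of 58302 in the deposited A549 table, were taken by gene name, and the set was chosen by a measured value, the level of HES4 with metformin, which had been seen to be much higher than without it. The change with metformin is therefore described here without a test, and tests are given for the comparisons of GPD1 with vector cells and for their difference between treatments. A filter on low values, a mean of 1 FPKM or more in the 12 libraries, was passed by all 5 and by 12607 genes in total. FPKM are fragments per kilobase of transcript and per 1 M mapped fragments.

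HES proteins carry a basic region that binds DNA, and they recruit Groucho corepressors through a short carboxy-terminal motif. HES1 is the classical target of Notch: after a Notch receptor is cleaved, its intracellular domain joins the DNA-binding protein RBPJ at the HES1 promoter. ID proteins lack the basic region. They pair with E proteins such as the product of TCF3 and keep them off DNA, and ID1, ID2 and ID3 are standard targets of bone morphogenetic protein (BMP) signalling through SMAD proteins in many cell types, epithelial cells among them.

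Polyadenylated RNA was measured in A549, an established human lung cancer cell line, in 4 groups of 3 libraries. The groups were cells transduced with a lentivirus that overexpresses GPD1 and cultured with 10 mM metformin, cells with a blank vector lentivirus and 10 mM metformin, untreated GPD1 cells and untreated vector cells. All 4 groups thus carried a lentivirus, and the labels give neither the promoter of the transgene, nor the duration of treatment, nor whether the cells were a clone or a pool. GPD1, a cytosolic enzyme, makes glycerol-3-phosphate from a glycolytic intermediate, metformin is a biguanide drug that inhibits respiratory complex I, and the study asked how GPD1 acts on cancer cell growth with or without the drug. The 12 libraries of 786-O cells in the series of 24 samples were not analysed here. Whether the 3 libraries per group were grown as separate cultures is not said in the labels, so p-values measure only the spread between libraries, which may be technical.

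The libraries correspond to 13.3 to 18.0 M reads or fragments. GPD1 itself averaged 13.5 FPKM in GPD1 cells with metformin against 0.0538 FPKM in vector cells with metformin, and 15.8 FPKM in untreated GPD1 cells against 0.0770 FPKM in untreated vector cells. Keratins KRT7, KRT8 and KRT18 averaged 67.9 to 307 FPKM in the groups. SFTPB and SFTPC, surfactant genes that define alveolar type II cells, were at or below 0.0295 FPKM and KRT19 was at or below 0.0558 FPKM. Of 6 epithelial genes 4 passed the filter, these keratins without KRT19 and CDH1. Of 9 lung lineage genes 2 passed, FOXA1 and FOXA2. Of 8 genes of other cell types 2 also passed, PAX2 (kidney) and COL1A1 (fibroblasts). Mitochondrial transcripts made up 10.3% to 14.9% of the FPKM total in the metformin libraries and 30.2% to 33.2% in the untreated ones, so the level of every other gene depends on how the libraries are scaled. The median log2 difference of all tested genes between metformin and no metformin was -0.20 in GPD1 cells and -0.10 in vector cells. It became 0.06 and 0.09 with median-ratio factors and -0.49 and -0.34 with totals taken without mitochondrial genes. Of the genes called between GPD1 and vector cells under metformin 41.7% were higher, which became 54.4% with upper-quartile factors and 32.6% with totals without mitochondrial genes. The same share of the interaction calls was 41.6%, and 54.9% and 32.1% under those settings. Shares of higher genes with metformin were 35.2% in GPD1 cells (17.3% without mitochondrial totals, 53.7% with median-ratio factors) and 42.0% in vector cells (27.8% and 55.7%).

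The genes lie on 4 chromosomes (GRCh38). HES4 (ENSG00000188290) spans chr1:998962-1000172 on the minus strand, ID3 (ENSG00000117318) chr1:23557918-23559794 on the minus strand, HES1 (ENSG00000114315) chr3:194136145-194138732 on the plus strand, ID2 (ENSG00000115738) chr2:8678845-8684453 on the plus strand and ID1 (ENSG00000125968) chr20:31605283-31606515 on the plus strand. All 5 were found in the RefSeq promoter table of GRCh38.p14. Promoter stretches of 3 genes are shown because HES1 and HES4 share an RBPJ core next to a CCAAT box, with ID1 beside them as an ID gene that has the CCAAT box and not the core. The same windows of ID2 and ID3 lie wholly in annotated exons and are not shown. Each runs from 120 to 51 bases before the RefSeq start, on the strand of the gene, at chr3:194136028-194136097, chr1:1000148-1000217 and chr20:31605169-31605238. Capitals mark the CCAAT box, read on the opposite strand as ATTGG, and the RBPJ core GTGGGAA. Of the HES4 stretch 25 bases lie in an annotated exon, since its RefSeq start is 75 bases downstream of the start in the deposited annotation.
HES1: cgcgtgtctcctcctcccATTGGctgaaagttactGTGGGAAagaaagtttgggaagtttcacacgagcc
HES4: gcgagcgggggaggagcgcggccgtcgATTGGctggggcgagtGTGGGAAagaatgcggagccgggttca
ID1: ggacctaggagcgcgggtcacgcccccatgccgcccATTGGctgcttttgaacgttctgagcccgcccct

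Searched on both strands over the 250 bases before the start, the core GTGGGAA was found in HES1 (85 to 79 bases before the start) and in HES4 (77 to 71 bases before), and in none of the ID windows. The RefSeq starts of ID2 and ID3 lie 3211 and 293 bases from the gene starts in the deposited annotation, so their windows lie inside the annotated gene. This core stood in 5.46% of all 27305 RefSeq promoters. CCAAT occurred in 4 of the 5 windows, against 33.0% of all promoters, with 3 copies each in HES1 and ID2 and 1 each in HES4 and ID1. The N box CACNAG, the form of site that HES proteins bind, was found in HES1 (3 matches) and ID1 (1), against 32.0% of all promoters. The E box CANNTG occurred in ID2 alone among the 5 (62.2% of all promoters), TATAAA in ID1 alone (11.1%, its 2 matches overlapping on opposite strands), and TGACG, a part of the cAMP response element, in HES1 and ID3 (21.7%). TGATGNAA (3.19%) and GGCGCC (16.1%) were not in these windows. Some matches can share bases with one another, and all are descriptions of the letters in the window.

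HES4 was the least abundant of the 5 transcripts without metformin, and with it had a mean below those of ID1 and ID3 only. HES4 had 52.1, 53.5 and 49.6 FPKM in GPD1 cells with metformin, against 2.45, 2.82 and 2.78 FPKM in untreated GPD1 cells. In vector cells HES4 had 45.2, 61.1 and 68.0 FPKM with metformin, against 2.95, 3.39 and 3.39 FPKM untreated. Every metformin library was thus far above every untreated one, and the means were 19.3-fold higher in GPD1 cells and 17.9-fold higher in vector cells. The log2 difference of FPKM + 1 was 3.84 ± 0.12 (SE) in GPD1 cells and 3.78 ± 0.12 in vector cells, the 10th and the 8th highest of the 12607 genes tested. Behind these levels stood the equivalent of 36.7 to 66.4 reads per library without metformin and 826 to 1228 reads with it. In this and all following comparisons of bulk RNA, fewer cells of a type and less RNA per cell cannot be told apart.

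HES1, which like HES4 encodes a HES repressor, was also higher with metformin. HES1 had 18.0, 18.4 and 18.0 FPKM in GPD1 cells with metformin, against 9.32, 7.93 and 7.99 FPKM in untreated GPD1 cells. In vector cells it had 30.6, 36.1 and 42.8 FPKM with metformin, against 11.3, 13.5 and 13.6 FPKM untreated. The libraries did not overlap, and the means were 2.16-fold higher in GPD1 cells and 2.85-fold higher in vector cells. Within a library, a comparison that no scaling touches, HES1 stood at 0.345, 0.345 and 0.362 of the HES4 level in GPD1 cells with metformin and at 3.81, 2.82 and 2.88 in untreated GPD1 cells. In vector cells the HES1 to HES4 ratio was 0.676, 0.590 and 0.630 with metformin and 3.84, 3.97 and 4.02 untreated. The order of the 2 HES transcripts was therefore opposite with and without metformin in all 12 libraries.

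**Figure D1:**
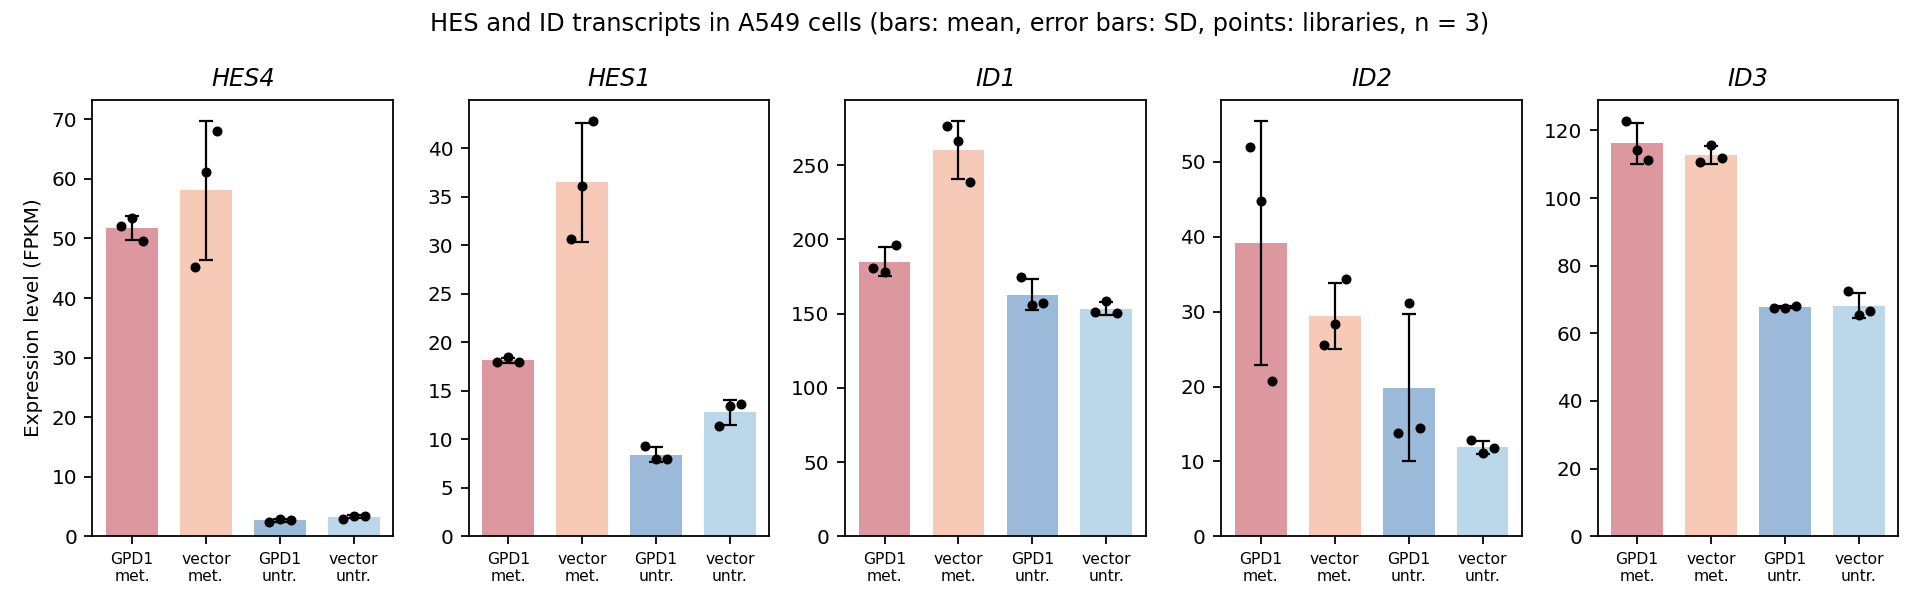
Expression level (FPKM, linear axes from 0, a scale for each gene) of the 5 HES and ID genes in the 4 groups. Bars are means, error bars the SD and points the 3 libraries of a group. HES4 lies between 45.2 and 68.0 FPKM in the metformin libraries and between 2.45 and 3.39 FPKM in the untreated ones, and ID2 is scattered in both GPD1 groups.

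The 3 ID genes differed from one another in how they stood with metformin. ID3 had 123, 114 and 111 FPKM in GPD1 cells with metformin, against 67.6, 67.5 and 68.1 FPKM in untreated GPD1 cells. In vector cells ID3 had 111, 116 and 112 FPKM with metformin, against 72.5, 65.6 and 66.6 FPKM untreated. ID3 was thus 1.72-fold higher in GPD1 cells and 1.65-fold higher in vector cells, with no overlap and almost the same levels in both.

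ID1, the most abundant of the 5 in every library, had 181, 178 and 196 FPKM in GPD1 cells with metformin, against 175, 156 and 157 FPKM in untreated GPD1 cells. In vector cells ID1 had 276, 266 and 238 FPKM with metformin, against 151, 158 and 150.0 FPKM untreated. The difference was 1.70-fold in vector cells and 1.14-fold in GPD1 cells, where the lowest metformin library lay just above the highest untreated one. The log2 difference in GPD1 cells, 0.18 ± 0.06 (SE), became -0.20 with totals without mitochondrial genes, so its sign depends on the scaling.

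ID2 had 52.0, 44.8 and 20.7 FPKM in GPD1 cells with metformin, against 13.8, 31.1 and 14.5 FPKM in untreated GPD1 cells, and these ranges overlapped. In vector cells ID2 had 25.6, 28.4 and 34.3 FPKM with metformin, against 12.8, 11.1 and 11.8 FPKM untreated, with no overlap. The means were 1.98-fold higher in GPD1 cells and 2.47-fold higher in vector cells. In all, 4 of the 5 genes were higher with no overlap in GPD1 cells, where 27.5% of all tested genes were, and 5 of 5 in vector cells, where 32.4% were. The median log2 difference of the 5 was 0.95 in GPD1 cells and 1.23 in vector cells, against -0.20 and -0.10 for all tested genes, and since the set was chosen for HES4 nothing is read from these counts.

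The spread of ID2 between libraries was itself large in the GPD1 cells. Its coefficient of variation was 41.8% in GPD1 cells with metformin and 15.1% in vector cells with metformin. It was 49.5% in untreated GPD1 cells and 7.28% in untreated vector cells. The median over all tested genes lay between 6.47% and 9.15% in the 4 groups. Among 5533 genes with a mean level of 5 FPKM or more, 25 genes, ID2 included, varied at least as much as ID2 in both GPD1 groups. The high libraries were replicates 1 and 2 with metformin and replicate 2 without it. Each library held the equivalent of 345 to 1710 ID2 reads. An antisense gene, ID2-AS1, overlaps ID2, and the strand setting of the counting is not given, so reads of the pair could be mixed. ID2-AS1 averaged 0.817 FPKM in GPD1 cells with metformin, 0.353 FPKM in vector cells with metformin, 2.05 FPKM in untreated GPD1 cells and 2.56 FPKM in untreated vector cells, at most 2.92 FPKM in any library.

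By level, the order without metformin was ID1, ID3, ID2, HES1 and HES4 in GPD1 cells, with no overlap between neighbours. In untreated vector cells HES1 (11.3 to 13.6 FPKM) and ID2 (11.1 to 12.8 FPKM) overlapped in between ID3 and HES4. With metformin ID1 and ID3 still led. HES4 overlapped with ID2 in GPD1 cells (20.7 to 52.0 FPKM for ID2), and HES1 was lowest there. In vector cells with metformin the means of HES4 and HES1 were 58.1 and 36.5 FPKM. The lowest HES4 library there (45.2 FPKM) lay just above the highest HES1 library (42.8 FPKM), and HES1 overlapped with ID2.

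GPD1 overexpression went with lower HES1 and ID1 under metformin. HES1 averaged 18.1 ± 0.271 FPKM in GPD1 cells and 36.5 ± 6.14 FPKM in vector cells (SD, n = 3 each), 2.01-fold lower in GPD1 cells. This is a log2 fold change of -0.96 ± 0.11 (SE), with an adjusted p of 2.63e-05 in limma (Benjamini-Hochberg over the 12607 genes). ID1 averaged 185 ± 9.78 FPKM in GPD1 cells and 260.3 ± 19.6 FPKM in vector cells, 1.41-fold lower, with a log2 fold change of -0.49 ± 0.06 and an limma adjusted p of 7.21e-05. In both genes every GPD1 library was below every vector library. HES4, ID2 and ID3 were not called, and none of them had an unadjusted p under 0.05. HES4 averaged 51.8 ± 1.97 FPKM in GPD1 cells and 58.1 ± 11.7 FPKM in vector cells, and the 95% interval of its log2 difference ran from -0.41 to 0.12 (limma adjusted p = 0.325). The interval was -0.45 to 1.07 for ID2 (limma adjusted p = 0.462) and -0.06 to 0.15 for ID3 (limma adjusted p = 0.472).

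So 2 of the 5 genes fell and 0 rose, where 35.0% of all tested genes fell and 25.0% rose. By separation of the libraries 2 were lower and 0 higher, against 37.1% and 27.7% of all genes. The median log2 difference of the 5 was -0.15, against -0.05 for all genes. The HES4 result turned on vector metformin replicate 1, whose HES4 level was the lowest of its group: without it HES4 was lower in GPD1 cells, with a log2 fold change of -0.31 and an limma adjusted p of 0.00475. ID3 was called higher in GPD1 cells under 2 other scalings. Its log2 fold change was 0.14 when libraries were scaled by median ratios (limma adjusted p = 0.0441). Scaling by upper quartiles gave 0.18, at a limma adjusted p of 0.00924, and its sign turned with totals without mitochondrial genes (-0.06).

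Without metformin HES1 was again lower in GPD1 cells. HES1 averaged 8.41 ± 0.784 FPKM in untreated GPD1 cells and 12.8 ± 1.28 FPKM in untreated vector cells, 1.52-fold lower, with no overlap. The log2 fold change was -0.55 ± 0.11 (SE), with an limma adjusted p of 0.00504. HES4 also lay lower in every GPD1 library, at 2.68 ± 0.204 FPKM against 3.24 ± 0.254 FPKM, but its log2 difference of -0.20 (95% interval -0.47 to 0.06) was not called (limma adjusted p = 0.271). When vector metformin replicate 1 was left out, which lowers the shared estimate of the spread, the same difference was called (limma adjusted p = 0.0493). ID2 lay higher in every GPD1 library, at 19.8 ± 9.81 FPKM against 11.9 ± 0.867 FPKM, and was not called either (log2 difference 0.59, 95% interval -0.17 to 1.36, limma adjusted p = 0.261).

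ID1 averaged 163 ± 10.4 FPKM in untreated GPD1 cells and 153 ± 4.38 FPKM in untreated vector cells (log2 difference 0.09, limma adjusted p = 0.402). ID3 averaged 67.7 ± 0.329 FPKM and 68.2 ± 3.75 FPKM, with a 95% interval of the log2 difference from -0.12 to 0.10 (limma adjusted p = 0.928). Of the 5 genes 1 fell and 0 rose, where 11.3% of all tested genes fell and 9.99% rose. By separation of the libraries 2 were lower and 1 higher, against 22.7% and 18.8% of all genes.

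The difference between GPD1 and vector cells depended on metformin for ID1. Its interaction term was -0.58 ± 0.09 (SE) on the log2 scale, with an limma adjusted p of 4.99e-04: ID1 was higher with metformin in vector cells by 0.76 and in GPD1 cells by 0.18. Read against ID3 in the same library, ID1 stood at 1.47, 1.56 and 1.76 times ID3 in GPD1 cells with metformin and at 2.50, 2.30 and 2.13 times in vector cells with metformin. The ratio was 2.58, 2.31 and 2.31 in untreated GPD1 cells and 2.09, 2.41 and 2.25 in untreated vector cells. The GPD1 metformin libraries thus lay below all 9 others, whatever the scaling. In the interaction 1 of the 5 genes was called with a negative term and 0 with a positive one, where 26.8% and 19.1% of all tested genes were.

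HES1 had an interaction term of -0.41 ± 0.16 (SE) and missed the threshold (limma adjusted p = 0.0554). It passed without vector metformin replicate 1 (-0.52, limma adjusted p = 0.0101) and with totals without mitochondrial genes (-0.49, limma adjusted p = 0.0227). The terms of HES4 (0.06, 95% interval -0.32 to 0.44), ID2 (-0.28, -1.36 to 0.80) and ID3 (0.05, -0.10 to 0.20) were not called, with limma adjusted p of 0.803, 0.665 and 0.570. HES1 was the only other gene of the 5 with an unadjusted p under 0.05 in the interaction, and in untreated cells there was no other.

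**Figure D2:**
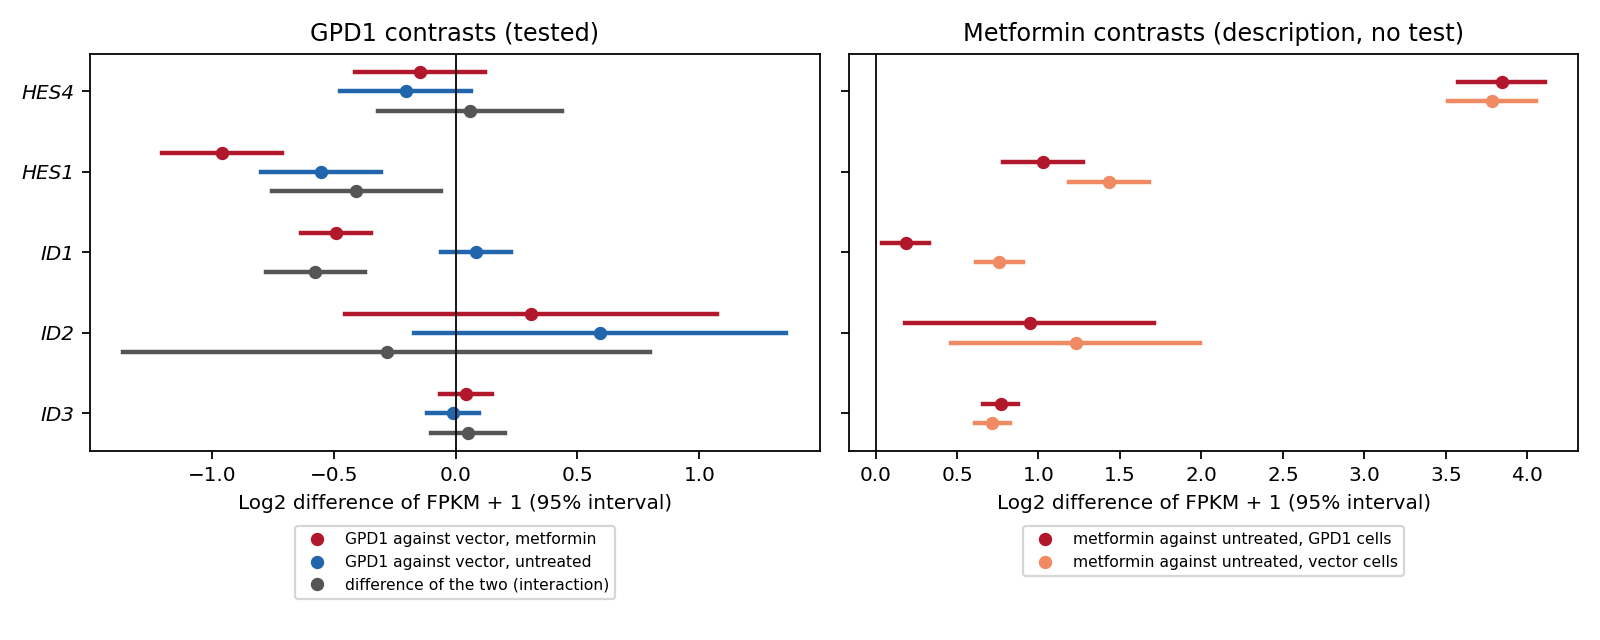
Log2 differences of FPKM + 1 with 95% intervals (x axis) for each gene (y axis): GPD1 against vector cells under metformin and untreated with the difference of these 2 contrasts on the left, metformin against untreated cells on the right. The interval of HES1 lies below 0 in both GPD1 contrasts, that of ID1 under metformin and in the interaction, and HES4 lies at 3.84 and 3.78 on the right.

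Several genes that act upstream of HES1 in the Notch pathway were lower in GPD1 cells under metformin. Of the ligands, 2 of 3 tested fell and 0 rose, against 35.0% and 25.0% of all genes. JAG1 had 8.29, 7.73 and 6.69 FPKM in GPD1 cells and 19.5, 19.3 and 20.2 FPKM in vector cells, a log2 fold change of -1.27 (limma adjusted p = 8.4e-08), and JAG2 was 2.74-fold lower (limma adjusted p = 5.7e-07). In untreated cells limma called 0 of the 3 ligands, and 0 had an unadjusted p under 0.05. The interaction terms were -1.24 for JAG1 (limma adjusted p = 3.94e-06) and -0.91 for JAG2 (limma adjusted p = 3.54e-05).

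Of 21 tested Notch receptors and signalling genes, 11 fell and 4 rose in GPD1 cells under metformin, where 35.0% of all tested genes fell and 25.0% rose. EP300, an acetyltransferase coactivator of the Notch complex, averaged 1.24 ± 0.0822 FPKM in GPD1 cells and 4.60 ± 0.802 FPKM in vector cells (log2 fold change -1.31, limma adjusted p = 3.58e-07). NOTCH3 rose, with 53.5 ± 2.43 FPKM in GPD1 cells and 35.0 ± 0.433 FPKM in vector cells (0.60, limma adjusted p = 3.91e-07), and DTX3L, a ubiquitin ligase of the Deltex family, rose by 1.03. Named after their values were seen, NOTCH1 fell by 0.65 and NOTCH2 by 1.43. RBPJ, also named afterwards, had 1.59, 0.558 and 1.62 FPKM in GPD1 cells and 4.09, 3.89 and 4.03 FPKM in vector cells (-1.19, limma adjusted p = 7.56e-05). The list median was -0.23, against -0.05 for all genes. In untreated cells 4 of the 21 fell and 2 rose, against 11.3% and 9.99% of all genes, with NOTCH3 higher by 0.27 (limma adjusted p = 6.64e-04).

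Of 9 tested genes for proteases that cleave Notch or for their subunits, 4 rose in GPD1 cells under metformin, against 25.0% of all genes. The count was 3 with totals without mitochondrial genes and 5 with median-ratio factors. Among the 4 were FURIN, a protease that processes the receptor in the Golgi (log2 fold change 0.65), and NCSTN, a subunit of gamma-secretase (0.31). Among 6 Groucho corepressors 2 rose and 2 fell, against 25.0% and 35.0% of all genes. TLE1 averaged 8.38 ± 0.186 FPKM in GPD1 cells and 19.1 ± 0.247 FPKM in vector cells (-1.10, limma adjusted p = 1.14e-08), whereas AES, a short family member, rose by 0.50 (limma adjusted p = 9.32e-05).

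Most other repressors of the HES, HEY and BHLHE families were scarcely detected: 4 of 11 were tested, and HES5 was listed at 0 in all libraries. BHLHE40, a circadian and hypoxia-responsive repressor, averaged 129 ± 1.08 FPKM in GPD1 cells with metformin, 91.4 ± 11.4 FPKM in vector cells with metformin, 36.8 ± 1.24 FPKM in untreated GPD1 cells and 33.8 ± 1.50 FPKM in untreated vector cells. It rose with metformin in GPD1 cells by 1.79 and in vector cells by 1.40 on the log2 scale (limma adjusted p = 6.2e-09 and 2.65e-08). HEYL, a Notch target in vascular muscle, fell with metformin by 1.02 in GPD1 cells and by 1.04 in vector cells (limma adjusted p = 7.94e-07 and 6.5e-07). HES6 and HES7 were called higher with metformin in GPD1 cells and in vector cells. These calls ended under some scalings, and the difference of HES7 in GPD1 cells, 0.32, reached -0.018 among them. Under metformin BHLHE40 rose in GPD1 cells against vector cells by 0.50 (limma adjusted p = 1.58e-04), opposite in sign to HES1. HES7, an oscillating repressor of somite segmentation in mice, fell by 0.41 there (limma adjusted p = 0.00907, but 0.0506 with upper-quartile factors), and HES6 (0.14) was not called. HEYL was higher by 0.25 (limma adjusted p = 0.0207, but 0.0596 with totals without mitochondrial genes).

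ID genes are known targets of BMP signalling. SMAD factors and inhibitors of BMP and TGF-beta signalling were taken as 1 list. Of 12 tested SMAD factors and inhibitors, 10 fell and 1 rose in GPD1 cells under metformin, against 35.0% and 25.0% of all tested genes. The list median was -0.48, and the count of lower genes became 8 with upper-quartile factors. Among those that fell, SMAD4 and SMAD5 carry the BMP signal and SMAD3 that of TGF-beta. The others are inhibitors of SMAD signalling. SMAD4, the common partner of the receptor-regulated SMADs, averaged 1.34 ± 0.0192 FPKM in GPD1 cells and 3.03 ± 0.172 FPKM in vector cells (-0.79, limma adjusted p = 4.4e-07). SMURF1 and SMURF2, ubiquitin ligases that target SMADs and their receptors, fell by 0.81 and 0.84. Without metformin 1 of the 12 fell and 3 rose, against 11.3% and 9.99% of all tested genes. Of the 12 interaction terms 8 were called negative by limma and 0 positive, against 26.8% and 19.1% of all tested genes. At an unadjusted p under 0.05 there were 0 positive terms as well. SMAD3 fell under metformin (-0.45) and rose without it (0.29, limma adjusted p = 0.0129).

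Of 9 BMP and TGF-beta receptors, 5 fell and 2 rose in GPD1 cells under metformin, against 35.0% and 25.0% of all tested genes, and nothing is read from these counts. ACVR1, a type I receptor for BMPs, averaged 4.22 ± 0.371 FPKM in GPD1 cells and 8.13 ± 0.417 FPKM in vector cells (-0.81, limma adjusted p = 1.32e-06). BMPR2, a type II receptor, rose by 0.56 (limma adjusted p = 2.94e-06). Among 7 ligands and antagonists 3 fell and 1 rose, near the same shares, and BMP6 had the widest difference of them, with 1.69 ± 0.105 FPKM in GPD1 cells and 9.35 ± 0.953 FPKM in vector cells (-1.94, limma adjusted p = 2.53e-08). In untreated cells BMP6 fell by 0.69 (limma adjusted p = 2.20e-04).

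**Figure D3:**
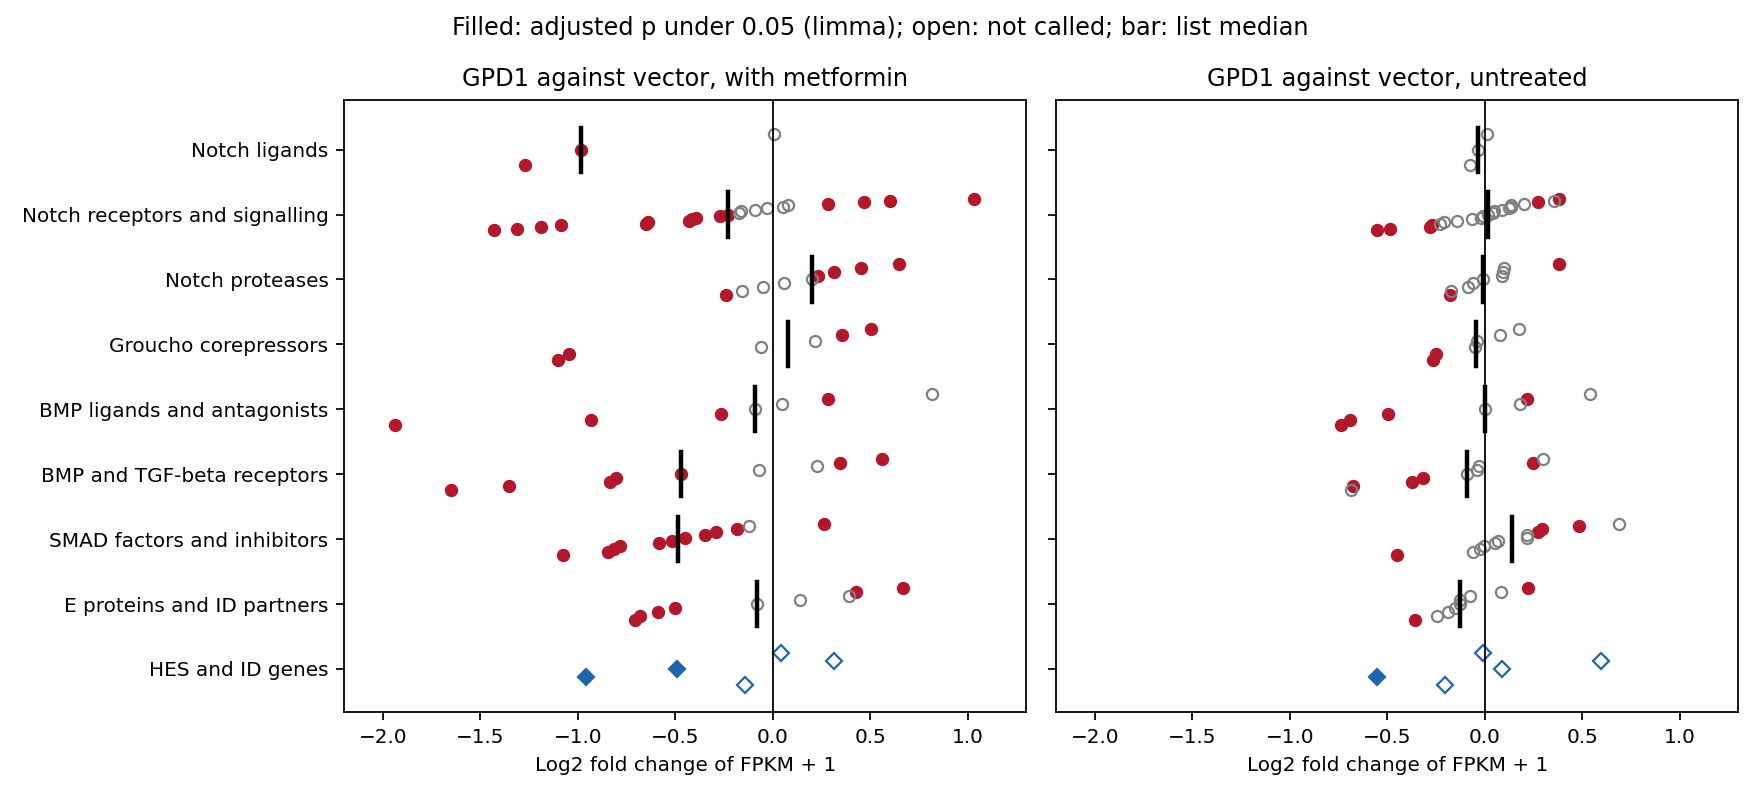
Log2 fold change of FPKM + 1 (x axis) of each tested gene of 8 pathway lists and of the 5 HES and ID genes (y axis), GPD1 against vector cells, with metformin on the left and untreated on the right. Filled points had a limma adjusted p under 0.05, open points did not, and bars are list medians. Of the SMAD genes 10 lie below 0 as filled points on the left, and JAG1 and JAG2 lie at -1.27 and -0.99.

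Of 9 tested partners of ID proteins, 2 rose and 4 fell in GPD1 cells under metformin, near the shares of all genes (25.0% and 35.0%). RB1, the retinoblastoma protein that ID2 binds, averaged 6.55 ± 0.150 FPKM in GPD1 cells and 3.75 ± 0.208 FPKM in vector cells (0.67, limma adjusted p = 7.27e-07). The E protein gene TCF3 averaged 2.27 ± 0.237 FPKM in GPD1 cells and 4.34 ± 0.133 FPKM in vector cells (-0.71, limma adjusted p = 2.26e-06), and ETS2, whose product ID proteins can bind, fell by 0.68. E proteins are known to activate CDKN1A, and HES1 to repress CDKN1B, both inhibitors of the cell cycle. Whether they did so in these cells was not tested. Of 4 tested cell cycle inhibitors 2 rose and 1 fell under metformin, against 25.0% and 35.0% of all genes. CDKN1A averaged 190.1 ± 12.4 FPKM in GPD1 cells with metformin and 103 ± 13.5 FPKM in vector cells with metformin, and it rose by 0.89 (limma adjusted p = 9.37e-06), whereas CDKN1B fell by 1.05 (limma adjusted p = 1.27e-07). Both signs held under each scaling tried. In untreated cells CDKN1A was higher in GPD1 cells by 0.39 (limma adjusted p = 0.0103) and CDKN1B lower by 0.24 (limma adjusted p = 0.0154). With metformin in vector cells CDKN1A rose by 1.87 and CDKN1B by 0.70.

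The response to metformin itself is given here for the Notch receptor and signalling list, the SMAD list and JAG1. In GPD1 cells, where 26.1% of all tested genes rose and 48.0% fell, 3 of the 21 Notch receptor and signalling genes rose and 15 fell, and 1 of the 12 SMAD genes rose and 9 fell. In vector cells, where 31.3% of all genes rose and 43.3% fell, 5 of the 21 rose and 10 fell, near these shares. Of the SMAD genes 5 rose and 5 fell in vector cells, but 7 rose and 2 fell with median-ratio factors. JAG1 rose in vector cells by 1.06 (limma adjusted p = 1.12e-07). In GPD1 cells its log2 difference of -0.18 (limma adjusted p = 0.0320) became 0.12 with median-ratio factors, where it was not called. BAMBI, a decoy receptor, and SMAD6, an inhibitory SMAD, are both known as BMP targets. BAMBI and SMAD6 fell in vector cells by 1.38 and 1.13 and in GPD1 cells by 1.45 and 1.64. SMAD7, another inhibitor of the list, was not called in vector cells (0.12, limma adjusted p = 0.169). Whether BMP signalling itself changed was not tested.

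The gene next to HES4 showed another pattern. ISG15, an interferon-induced ubiquitin-like modifier, starts 966 bases from HES4 on the opposite strand. It had 36.0, 36.6 and 37.1 FPKM in GPD1 cells with metformin, against 4.97, 5.35 and 6.15 FPKM in vector cells with metformin. Untreated cells had 5.00, 4.33 and 4.10 FPKM with GPD1 and 3.65, 3.09 and 3.82 FPKM with the vector. ISG15 was thus high in a single group, where HES4 was high in both metformin groups. Its log2 fold change between GPD1 and vector cells under metformin was 2.54 ± 0.08 (SE, limma adjusted p = 5.34e-09). That of AGRN, which starts 19951 bases from HES4, was 0.77 (limma adjusted p = 8.91e-06). NOC2L (-0.52, limma adjusted p = 1.44e-05) and KLHL17 (-0.40, limma adjusted p = 7.06e-04), also near HES4, fell in this contrast. PLEKHN1 (0.18, limma adjusted p = 0.0852) was not called, and PERM1 was below the filter. Around the other genes within 50 kb, E2F2, a cell cycle factor near ID3, fell with metformin by 1.95 in GPD1 cells and 1.67 in vector cells, COX4I2 near ID1 was below the filter, and no start of a protein-coding gene lay that close to HES1 or ID2.

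**Figure D4:**
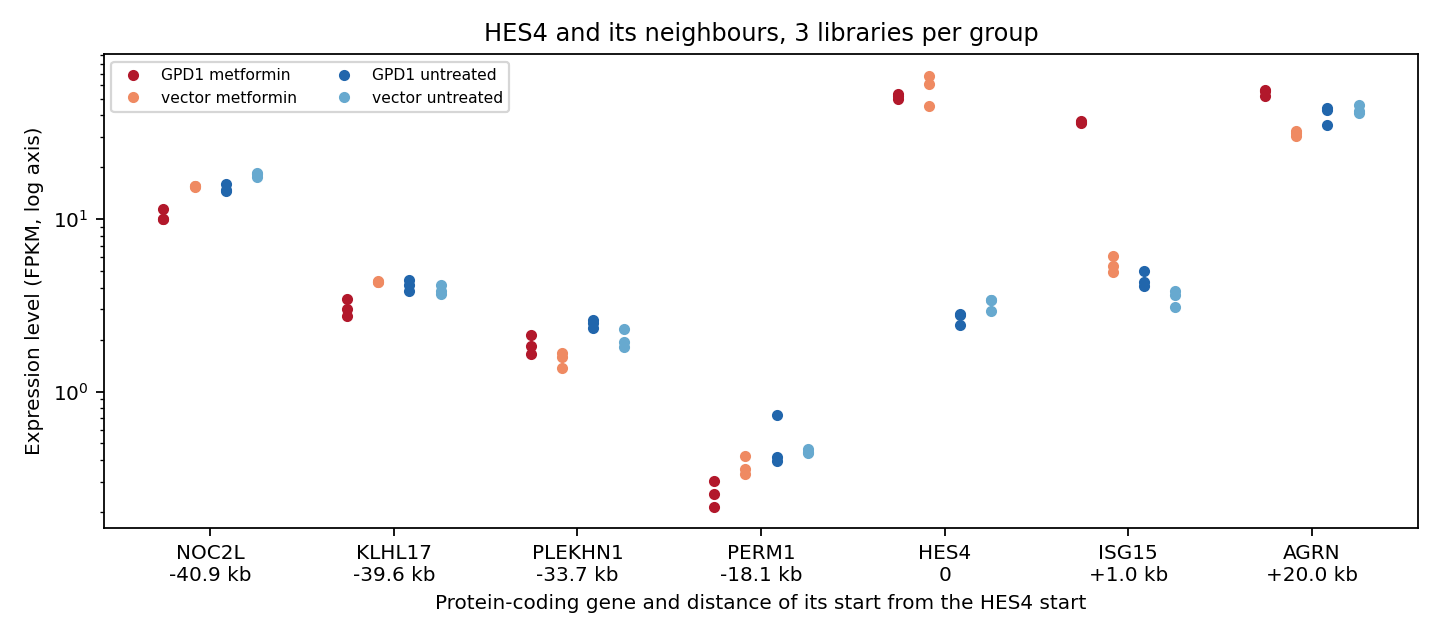
Expression level (FPKM, log axis) of HES4 and of the protein-coding genes whose start lies within 50 kb of its start (x axis, with the distance between the starts), 3 libraries per group. HES4 is high in both metformin groups and ISG15 at 36.0 to 37.1 FPKM in GPD1 cells with metformin alone among the groups.

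The transcripts most like each gene were taken as the smallest root mean square difference of centred log2(FPKM + 1) over the 12 libraries, among 4854 protein-coding genes with a mean level of 5 FPKM or more. For HES4 these were NR1D1, a nuclear receptor of the circadian clock (0.32), the kinase gene PIM3 (0.35) and GDF15, a stress-induced cytokine (0.36). NR1D1 averaged 66.2 ± 0.993 FPKM in GPD1 cells with metformin, 98.1 ± 6.75 FPKM in vector cells with metformin, 6.87 ± 0.863 FPKM in untreated GPD1 cells and 8.09 ± 0.266 FPKM in untreated vector cells. For HES1 they were KLF11 (0.13), VAT1 (0.13) and TCIM (0.14), for ID1 ZNF598 (0.07), RAB14 (0.07) and KIAA1522 (0.08), and for ID3 MYDGF (0.04), CSTB (0.06) and EIF2S3 (0.06). KLF11, a Krüppel-like repressor, averaged 6.16 ± 0.488 FPKM in GPD1 cells with metformin and 13.9 ± 1.61 FPKM in vector cells with metformin. KLF11 averaged 3.20 ± 0.0414 FPKM in untreated GPD1 cells and 4.84 ± 0.137 FPKM in untreated vector cells. KLF11 was picked for its likeness to HES1, so nothing is read from the order of its means. For ID2 they were CTSL, a lysosomal protease gene (0.34), TMED3 (0.36) and SLC16A4 (0.37).

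All 5 transcripts are short, with merged exons of 1118 bases in HES4 to 2205 bases in ID2 against a median of 4202 bases for tested genes, and shorter genes stood somewhat higher with metformin in these libraries. The median log2 difference of genes below the lower quartile of length was 0.07 in GPD1 cells and 0.12 in vector cells. Between GPD1 and vector cells under metformin the rank correlation of the log2 difference with length was -0.08. After a length trend was removed from each library, HES4 stood 3.74 higher with metformin in GPD1 cells and 3.69 higher in vector cells on the log2 scale. HES1 and ID1 were still called lower in GPD1 cells under metformin. The genes of the pathway lists were not examined with this trend removed.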

How the data were processed

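Per the labels' protocols, an NEB Ultra kit was used on polyadenylated RNA, and no strand setting is stated. CASAVA 1.8, HISAT2 2.1.0, edgeR (no version) and GRCh38/hg38 are named, per the submitters' processing notes. The deposited table holds 58302 genes by 12 A549 columns of FPKM made by the authors. Its header names no unit: the unit was inferred, and RPKM cannot be told apart. When low values are multiplied by merged exon length (GENCODE 29), 64.5% to 69.3% of genes with at most 10 reads come out whole (tolerance 0.02). This gives the depths, with 0.0556 to 0.0753 FPKM for a single read on 1 kb.

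Columns were assigned to groups by their names. limma 3.58.1 with trend, under R 4.3.3, fitted 4 group means to log2(FPKM + 1) for genes averaging 1 FPKM or more, two-sided, with Benjamini-Hochberg adjustment in each of 5 comparisons and a threshold of 0.05. The pseudocount of 1 understates changes of low genes. The fit was checked on simulated data. The 5 genes, the lists and the tests were chosen with earlier results of these data known. From each list up to 3 genes with the smallest adjusted p under 0.05 and a mean of at least 2 FPKM were named per comparison, with all other HES, HEY and BHLHE genes that were tested, 3 most alike genes per member and neighbours within 50 kb. Promoters are from RefSeq. Alternatives were 3 other scalings, a pseudocount of 0.1, no filter, a fit of the compared groups, a replicate block, each library left out and, added after seeing the data, a length trend removed (spline, 5 degrees of freedom). The result of 1 gene of the protease list is not reported here.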

Additional observations from a re-analysis of the deposited data

Results flagged for a closer look

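The interaction of ID1 is singled out because the difference between GPD1 and vector cells itself differed between treatments in a direct test. Such a call is not particular to ID1: 26.8% of all tested genes had a called negative term and 19.1% a positive one. ID1 was 1.41-fold lower in GPD1 cells with metformin and 1.06-fold higher in GPD1 cells without it, and the interaction term was -0.58 on the log2 scale (limma adjusted p = 4.99e-04). Over each library left out the term ran from -0.64 to -0.52, and over the other settings from -0.67 to -0.44, with a highest limma adjusted p of 0.00238.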

How the results depend on the processing

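The calls of HES1 and ID1 under metformin, of HES1 without it and of the ID1 interaction held under every alternative run. With totals without mitochondrial genes 2 interaction terms were called, HES1 being added (-0.49), the terms of HES4 (-0.027) and ID3 (-0.040) and the ID3 difference under metformin (-0.058) turned negative, and ID1 with metformin in GPD1 cells became -0.20. ID3 was called higher under metformin with median-ratio (0.14) and upper-quartile (0.18) factors, and its untreated difference became 0.0084 with median-ratio factors. The causes were not tested.

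With each library left out, 2 to 3 members were called under metformin, 1 to 2 without it and 1 to 2 in the interaction, while 4 to 5 and 5 to 5 did not overlap with metformin in GPD1 and vector cells. Under metformin HES4 ran from -0.31 to -0.024, and ID3 from 0.00146 to 0.07. Without metformin HES4 ran from -0.26 to -0.16 and ID3 from -0.036 to 0.035, turning positive without vector untreated replicate 1. The interaction ran from -0.52 to -0.29 for HES1, from -0.11 to 0.18 for HES4 and from -0.53 to 0.11 for ID2, which turned positive without GPD1 metformin replicate 3 or GPD1 untreated replicate 2. The 3 added calls and the negative HES4 interaction came without vector metformin replicate 1.

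Replicate numbers are shared by the groups. Over all tested genes, deviations of same-numbered libraries correlated at -0.07 to 0.06, and those of differently numbered libraries at -0.10 to 0.07. A batch that acts on some genes only could still be shared, since these correlations would hardly show it. With a replicate block the tested genes called were 3107 higher and 4339 lower under metformin (3157 and 4409 without the block), 1152 and 1222 without metformin (1260 and 1428), and the block changed no call of the 5 genes. Depth limits HES4 in untreated cells most, at 36.7 to 66.4 reads per library.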
